A study of Mus musculus with 6 samples.

Results

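The expression of 9 genes of the neural lineages was examined in undifferentiated mouse embryonic stem cells (mESCs) with and without huntingtin. The genes were the oligodendrocyte lineage factors Olig1 and Olig2, the intermediate filament gene Nes (nestin), the neural factors Pax6, Sox1 and Sox3, and Neurog3, Neurod1 and Nkx2-2, which act in both neurons and the endocrine pancreas. They were chosen by gene symbol as neural stem and progenitor genes, and all 9 were found among the 23412 genes of the table. Wild type R1 mESCs and Htt-/- HN mESCs, both of strain 129Sv, were each measured in 3 RNA-seq libraries. In HN mESCs the promoter and exon 1 of Htt are deleted. Both lines were grown without feeder cells on gelatin, in serum medium with leukemia inhibitory factor and inhibitors of FGF receptors, MEK and GSK3. Replicates 1, 2 and 3 of both lines were collected on 3 shared dates, and values of single libraries are listed below in that order. Each genotype is 1 cell line, so the loss of Htt and other differences between the lines cannot be told apart.

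Olig1 and Olig2 are neighbouring genes for basic helix-loop-helix (bHLH) transcription factors, which mark progenitors of the ventral neural tube and set up the motor neuron and oligodendrocyte lineages. Sox1 and Sox3, relatives of the pluripotency factor Sox2, mark early neural ectoderm, while Pax6 acts in radial glia, the eye and the pancreas, and nestin fills the cytoskeleton of neural stem cells. Undifferentiated mESCs usually hold such genes at a low level, with their CpG-rich promoters under Polycomb repression.

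The promoters of Olig2, which stood higher in HN mESCs, and of Nes, whose libraries overlapped between the lines, are shown to set the gene at the centre of the results beside one from another chromosome. Each is the RefSeq sequence of GRCm38.p6 from 250 bases before to 50 bases after the start site, written 5′ to 3′ on the plus strand, with matches to CCAAT and TATAAA on either strand in capitals. RefSeq gave a promoter for 7 of the 9 genes.
Olig2, chr16:91225300-91225599, plus strand: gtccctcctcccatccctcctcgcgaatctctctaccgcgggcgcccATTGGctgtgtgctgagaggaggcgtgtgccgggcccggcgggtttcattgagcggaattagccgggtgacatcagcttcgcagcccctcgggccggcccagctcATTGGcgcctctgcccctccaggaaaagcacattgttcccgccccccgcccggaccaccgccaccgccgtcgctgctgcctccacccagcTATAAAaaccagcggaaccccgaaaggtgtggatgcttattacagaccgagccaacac
Nes, chr3:87970843-87971142, plus strand: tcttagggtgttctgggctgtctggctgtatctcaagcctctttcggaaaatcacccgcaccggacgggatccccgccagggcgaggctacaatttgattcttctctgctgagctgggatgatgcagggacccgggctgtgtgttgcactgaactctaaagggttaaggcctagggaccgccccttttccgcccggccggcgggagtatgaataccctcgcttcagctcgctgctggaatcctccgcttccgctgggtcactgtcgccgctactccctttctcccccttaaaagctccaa
The Olig2 window held 25 CpG dinucleotides, and 81.6% of the 32851 promoters of this length held fewer (median 7). It had 1 TATAAA match, found in 13.6% of all promoters, with its first base at -8 from the start site. It also had 2 CCAAT matches on the reverse strand, which read ATTGG, with first bases at -203 and -98. CCAAT was found in 37.4% of all promoters. GENCODE starts Olig2 at 91225457, before the RefSeq start site, so by that annotation the TATAAA match lies inside the gene. The Nes window held 18 CpG dinucleotides and neither motif. The bHLH motif CANNTG, present in 72.3% of all promoters, was in neither window. The Sox1 window was the richest in CpG of the 7 genes, with 37 CpG dinucleotides, and the others held between 16 and 26. These letters are a description of the windows and no evidence of a factor bound there.

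Libraries held from 1640391 to 3866717 reads on genes. The normalized counts of Htt, the deleted gene, were 229.9, 257.4 and 199.5 in R1 mESCs, against only 18.3, 58.1 and 54.2 in HN mESCs, so every HN library lay below every R1 library. All 10 markers of mESCs on the list used (among them Pou5f1 and Nanog) passed the filter on low values, and between the lines limma called 0 of them (adjusted p under 0.05 and log2 fold change beyond 1 in either direction), as did edgeR and DESeq2. At an unadjusted p under 0.05, Utf1 (-1.06 on the log2 scale), Zfp42 (-0.79), Klf4 (0.52) and Fgf4 (0.61) differed by limma, and of these Utf1 alone was beyond the fold threshold. With the replicate number as a block, Utf1 was called lower in HN mESCs. More genes had reads in the libraries of the third date (20542 and 20675) than in the other 4 libraries (18133 to 19083).

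Normalized counts are reads divided by the size factor of the library, and fold changes are on the scale of log2(normalized count + 1). Of the 9 genes, only Olig1 was called higher in HN mESCs in limma's test without a block, 0 were called lower (0 at an unadjusted p under 0.05), and Neurog3 was too low to be tested. Among all 14276 genes tested, 17 (0.119%) were called higher and 18 (0.126%) lower, or 27 and 18 when the libraries were scaled to equal medians. When the shared collection date was fitted as a block, Olig1 and Olig2 were called higher and 0 of the 9 lower, against 0.911% of all genes called higher and 1.04% called lower. Every HN library lay above every R1 library for these genes alone among the 9, as it did for 5.23% of all tested genes. The HN library was higher in each of the 3 same-date pairs for Olig1, Olig2 and Nes, as it was for 20.3% of all tested genes.

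**Figure D1:**
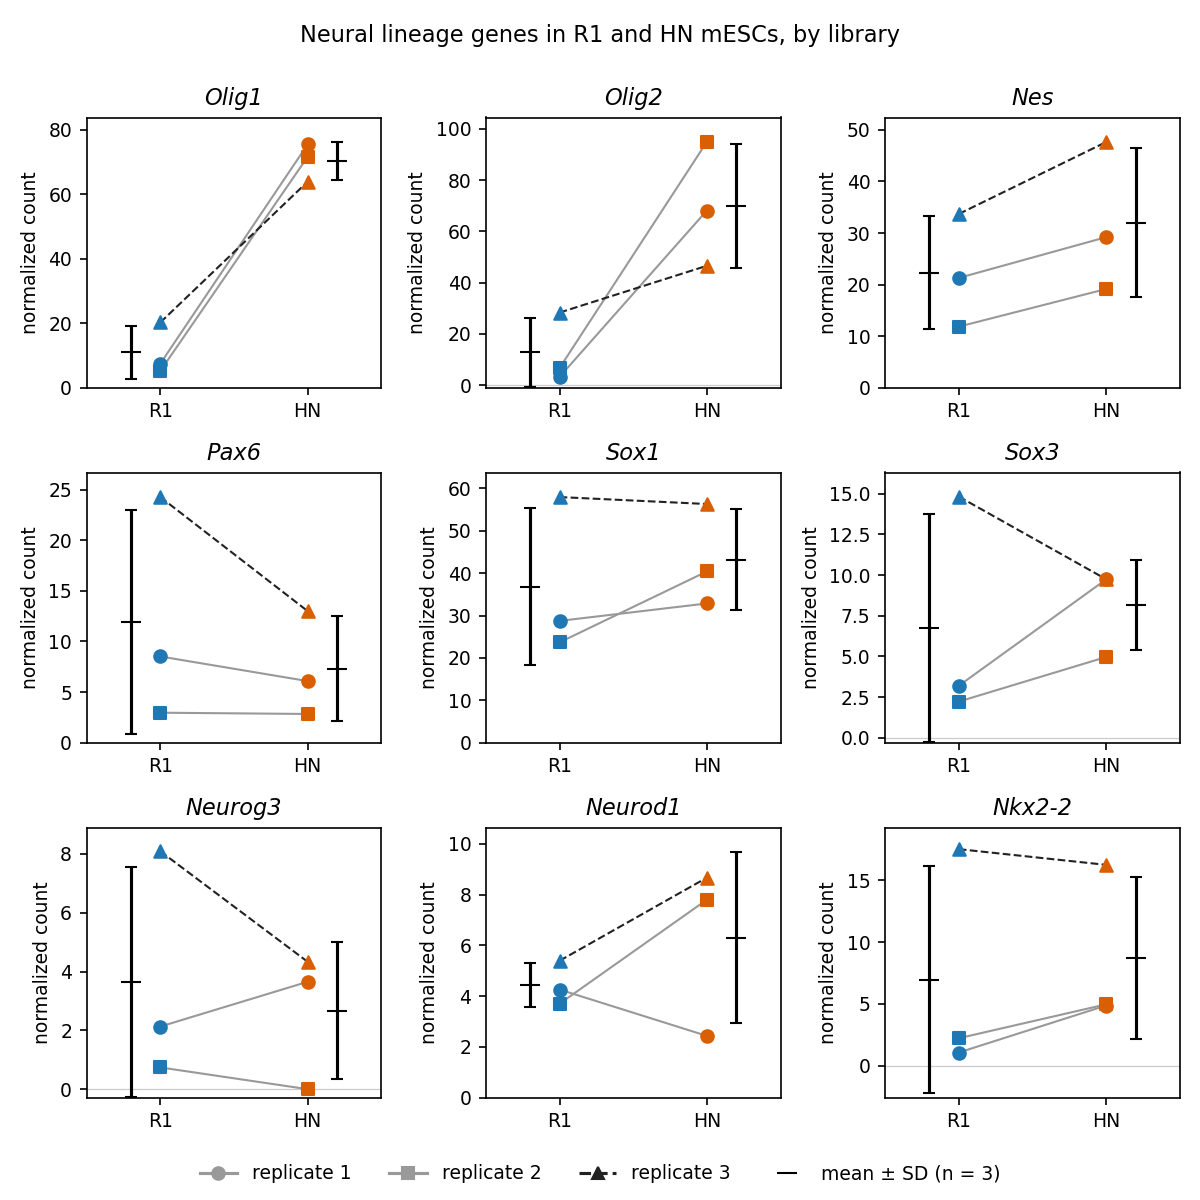
Normalized counts (y axis, a separate linear scale for each gene) of the 9 neural lineage genes in the 3 R1 (blue) and 3 HN (orange) libraries. Lines join libraries of 1 collection date, with a dashed line for the third, and bars beside the points show the mean ± SD (n = 3). The lines of cells stand apart for Olig1 and Olig2 and overlap for the other 7 genes.

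In R1 mESCs, Olig1 was read at normalized counts of 7.45, 5.18 and 20.2, compared with 75.4, 71.6 and 63.9 in HN mESCs. These values rest on 7, 7 and 15 reads in R1 and 62, 101 and 59 reads in HN. All HN libraries lay within a narrow band, while R1 replicate 3 stood above the other R1 libraries. Averages of the 3 libraries were 10.95 ± 8.11 (SD) for R1 and 70.3 ± 5.87 for HN mESCs, a ratio of means of 6.42. On the log2 scale, Olig1 was 2.78 higher in HN mESCs (standard error 0.43, 95% interval 1.83 to 3.73), and it passed limma's test with a Benjamini-Hochberg adjusted p = 0.0201. The log2 differences within the pairs were 3.18, 3.55 and 1.61, so the third date gave the lowest of them. The call was lost without R1 replicate 1 (adjusted p = 0.139 by limma), without HN replicate 1 (0.242) or without HN replicate 2 (0.0549), although the log2 fold change stayed between 2.41 and 3.30. In these bulk libraries, more cells expressing a gene and more RNA per cell cannot be told apart.

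Normalized counts of Olig2 were 3.19, 6.66 and 28.3 for R1, compared with 68.1, 94.98 and 46.6 for HN mESCs, from 3, 9 and 21 reads in R1 and 56, 134 and 43 reads in HN. The lowest HN library and the highest R1 library were both of the third date, and they still did not overlap. Averages of the 3 libraries were 12.7 ± 13.6 (SD) for R1 and 69.9 ± 24.3 for HN mESCs, a ratio of means of 5.5. The log2 difference of 2.80 (standard error 0.60, 95% interval 1.49 to 4.10) was as large as that of Olig1, but the spread was wider, and the adjusted p was 0.136 by limma. Date by date, the HN library exceeded its R1 partner by 4.04, 3.65 and 0.7 on the log2 scale. The value of the third date was thus under the fold threshold of 1. With the replicate block the interval was 2.04 to 3.55 and the adjusted p = 1.35e-06 by limma. All 3 pair values lay outside this interval, so it does not describe their spread. Without R1 replicate 3, the log2 difference was 3.59, and Olig2 was called without a block (adjusted p = 0.00144 by limma). Without both libraries of the third date, an alternative chosen after seeing the data, it was 3.85 for Olig2 and 3.37 for Olig1, each with an adjusted p = 0.0047 by limma. For single genes, an exact two-sided permutation test gave p = 0.1 for both, the smallest p that 3 libraries against 3 can give.

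Genes of neural stem cells and early neural ectoderm overlapped between the lines. Nes, the intermediate filament gene, was at 21.3, 11.8 and 33.7 normalized counts in R1 and at 29.2, 19.1 and 47.7 in HN mESCs. In each pair HN was the higher by 0.44, 0.65 and 0.49 on the log2 scale, a difference of 0.53 over all libraries (95% interval -0.45 to 1.5, adjusted p = 1 by limma). With the block the interval of Nes was -0.02 to 1.07, and it was not called (adjusted p = 0.259 by limma). Sox1, a factor of the forming neural plate, had normalized counts of 28.7, 23.7 and 58.0 in R1 and 32.9, 40.4 and 56.3 in HN mESCs, a log2 difference of 0.30 (95% interval -0.50 to 1.1, adjusted p = 1 by limma). Sox3, its X-linked relative, had normalized counts of 3.19, 2.22 and 14.8 in R1 and 9.73, 4.96 and 9.75 in HN mESCs, and differed by 0.56 on the log2 scale (95% interval -1.17 to 2.30, adjusted p = 1 by limma). HN mESCs were higher for Sox3 on the first and second dates and lower on the third. Pax6 was the only tested gene of the 9 with a lower mean in HN mESCs, with normalized counts of 8.52, 2.96 and 24.3 in R1 and 6.08, 2.84 and 13 in HN. Its log2 difference of -0.44 (95% interval -2.21 to 1.32, adjusted p = 1 by limma) was within the spread between libraries and changed sign without R1 replicate 3 (0.24) or HN replicate 2 (0.02).

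Neurog3, Neurod1 and Nkx2-2, which act in neurons and in the endocrine pancreas, had means below 10 normalized counts over the 6 libraries. Neurog3, a bHLH factor that starts the endocrine programme of the pancreas, had normalized counts of 2.13, 0.740 and 8.09 in R1 and 3.65, 0 and 4.33 in HN mESCs. Its mean of 3.16 was under the minimum of 5 for the test across genes, and an exact two-sided permutation test on the difference of -0.33 (log2 scale) gave p = 0.7. The 0 reads in HN replicate 2 allow up to 3 reads, a normalized count of 2.13 by counting error only. Neurod1, a bHLH factor of neuronal and endocrine differentiation, had normalized counts of 4.26, 3.70 and 5.39 in R1 and 2.43, 7.80 and 8.66 in HN, a log2 difference of 0.30 (95% interval -1.47 to 2.06, adjusted p = 1 by limma). Nkx2-2, a homeodomain factor of the ventral neural tube and of oligodendrocyte progenitors, had normalized counts of 1.06, 2.22 and 17.5 in R1 and 4.87, 4.96 and 16.2 in HN. Its log2 difference was 0.76 (95% interval -1.33 to 2.86, adjusted p = 1 by limma), and both libraries of the third date lay far above the other 4. The 95% intervals of Pax6, Sox3, Neurod1 and Nkx2-2 reached beyond 1 in both directions without the block. With it they ran from -1.40 to 0.52 for Pax6, -0.51 to 1.63 for Sox3, -0.87 to 1.46 for Neurod1 and -0.35 to 1.88 for Nkx2-2, so changes of that size were left undecided in 1 direction for each gene. The replicate block called none of these genes (adjusted p from 0.470 to 0.837 by limma for Pax6, Sox1, Sox3, Neurod1 and Nkx2-2).

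**Figure D2:**
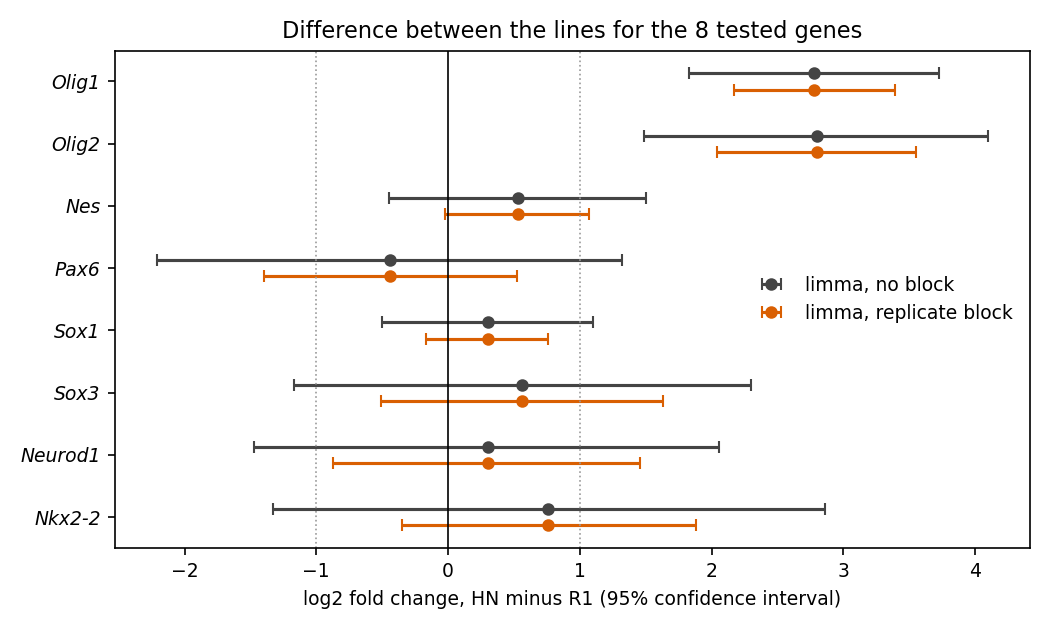
Log2 fold change of HN against R1 mESCs (x axis) for the 8 tested genes, with 95% confidence intervals by limma without a block (grey) and with the replicate block (orange). Dotted lines mark a log2 fold change of 1 in either direction, and the intervals of Olig1 and Olig2 alone lie above the upper one.

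Overlapping annotation limits some of these values, since the library kit does not mark the strand and the counting is not described further. Of the exon bases of Olig1, 7.26% overlap the antisense gene Gm15966. The shares were 16.3% for Neurog3 with Fam241b and 9.67% for Nkx2-2 with Nkx2-2os, both on the opposite strand, and 7.37% for Neurod1 with Cerkl on the same strand. Neurod1 also overlapped Gm26755 on the opposite strand (5.64%), and Sox1 overlapped Gm25239 on the same strand (1.78%). Olig2, Nes, Pax6 and Sox3 had no overlapping exon. Of the 50-base stretches of the transcripts, 5.11% of those of Olig1 and 0% of those of Olig2 were also found in transcripts of other genes, and the highest share was 13.3% for Neurog3.

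Levels were compared between genes as the normalized count per kb of exon. In R1 mESCs, Sox1 was the highest at 7.61 ± 3.83 per kb (SD, n = 3), followed by Olig1 at 5.06 ± 3.75, Olig2 at 5.03 ± 5.38, Nes at 3.47 ± 1.71 and Sox3 at 3.27 ± 3.40. Nkx2-2 (2.41 ± 3.20), Neurog3 (2.18 ± 2.33), Neurod1 (1.63 ± 0.316) and Pax6 (1.02 ± 0.945) were the lowest. Each step between neighbours in this order was smaller than the larger of their SDs. In HN mESCs, Olig1 (32.5 ± 2.72 per kb) and Olig2 (27.6 ± 9.59) stood first, ahead of Sox1 (8.94 ± 2.48), Nes (4.99 ± 2.25) and Sox3 (3.95 ± 1.34). The step from Olig2 to Sox1 exceeded both SDs, and that from Olig1 to Olig2 did not. The means of the 10 mESC markers in HN mESCs ran from 50 per kb for Utf1 to 2980 per kb for Dppa5a. The step from Olig1 to Utf1 was smaller than the SD of Utf1 (22.3), whose lowest library, at 34.7 per kb, lay below the highest of Olig1, at 34.9.

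The libraries of the third date were also compared with those of the first and second. In limma with the line as a covariate, all 8 tested genes had higher estimates on the third date than on the others, by 0.59 to 2.19 on the log2 scale, although Neurod1 turned to -0.58 under quantile normalization. Nkx2-2 (2.19, adjusted p = 0.0251 by limma) and Pax6 (1.73, adjusted p = 0.0459 by limma) were called higher and 0 were called lower, against 8.52% of all genes called higher and 1.23% called lower. Sox1 differed by 0.87 (adjusted p = 0.0453 by limma), below the threshold of 1, and Nes by 1.01 (adjusted p = 0.057). The estimates were 1.27 for Sox3, 0.80 for Olig2, 0.68 for Olig1 and 0.59 for Neurod1, and none of these passed. Among the 5824 genes with a mean in the range of the tested 8 (5.37 to 41.3), the median difference was 0.64 and 19.9% were called higher, so genes of this level were mostly higher on the third date. Over all tested genes the median was -0.07, and equal medians moved it to 0.06. The split of 1216 genes higher and 176 lower became 399 and 415 with quantile normalization, which called 0 of the 8 genes by date. Median centring called 4, adding Nes and Sox1. Each date holds 1 library per line, so the date, the culture and any handling on it cannot be told apart.

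**Figure D3:**
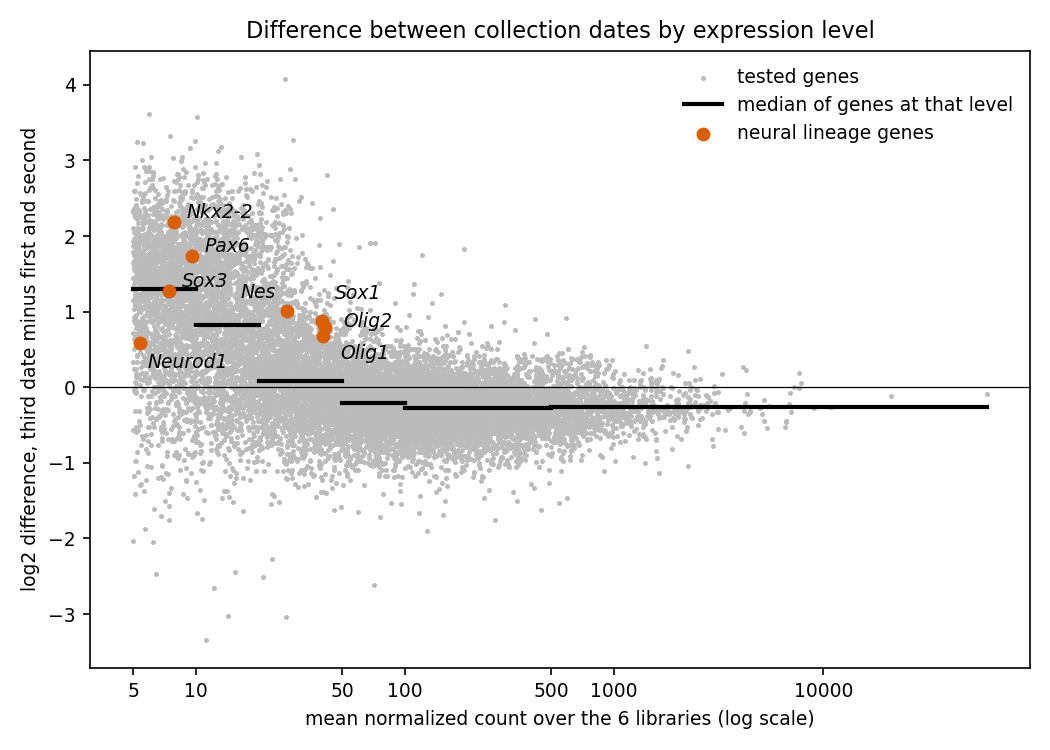
Log2 difference between the third collection date and the first and second (y axis) against the mean normalized count over the 6 libraries (x axis, log scale) for all tested genes (grey) and the 8 tested neural lineage genes (orange). Black bars give the median of the genes at each level, which falls from 1.30 for means of 5 to 10 to -0.26 for means of 500 and more.

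For the Olig pair, the third date stood on opposite sides in the 2 lines. In R1 mESCs, the library of the third date was the highest of the 3 for both Olig1 and Olig2, whereas in HN mESCs it was the lowest. The test of this difference, added after seeing the data, gave -1.75 for Olig1 and -3.15 for Olig2 on the log2 scale (unadjusted p = 0.0203 and 0.00172 by limma over 3 libraries per line), and both had an adjusted p = 1. Of all tested genes 0% were called for it, with 143 at an unadjusted p under 0.05 and a log2 value beyond 1 by limma, and 138 by edgeR, which also called 0. The sum of the other 7 genes was higher in both libraries of the third date (156 and 162) than in the other 4 (47.3 to 88.8). The lines also stood at different levels. Mean normalized counts of Olig1 and Olig2 were 10.95 and 12.7 in R1, and 70.3 and 69.9 in HN mESCs. Over all tested genes, the median date difference was 0.83 at means of 10 to 20 and -0.21 at means of 50 to 100. Whether the Olig pair differed beyond its level was not tested.

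Olig2 (ENSMUSG00000039830, GRCm38 chromosome 16 from 91225457 to 91228677, plus strand) and Olig1 (ENSMUSG00000046160, 91269772 to 91271933, plus strand) are separated by 41094 bases. GENCODE places 74 other genes within 1 Mb of the pair, of which 26 were in the table and 21 were tested. Limma called 0 of these 21 genes in either direction, with or without the block (0 at an unadjusted p under 0.05 with a log2 fold change beyond 1), and edgeR and DESeq2 without the block also called 0. Their log2 differences had a median of 0.03 and ranged from -0.47 for Dnajc28 to 0.27 for Il10rb, both named after their values were seen. The nearest tested gene before the pair, Paxbp1, on the minus strand with its lower coordinate at -211.4 kb from the start of Olig2, differed by 0.16 (95% interval -0.32 to 0.64, adjusted p = 1 by limma). The nearest after it, the interferon receptor gene Ifnar2, at 147.3 kb, differed by -0.14 (95% interval -0.67 to 0.40, adjusted p = 1 by limma). For 2 of the 21 genes, Mis18a (-0.17 on the log2 scale) and Mrps6 (-0.31), named after their values were seen, every HN library lay below every R1 library, with an adjusted p = 1 by limma for both. The intervals of Eva1c (-2.35 to 1.53) and Il10rb (-1.36 to 1.90) reached beyond 1 in both directions.

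**Figure D4:**
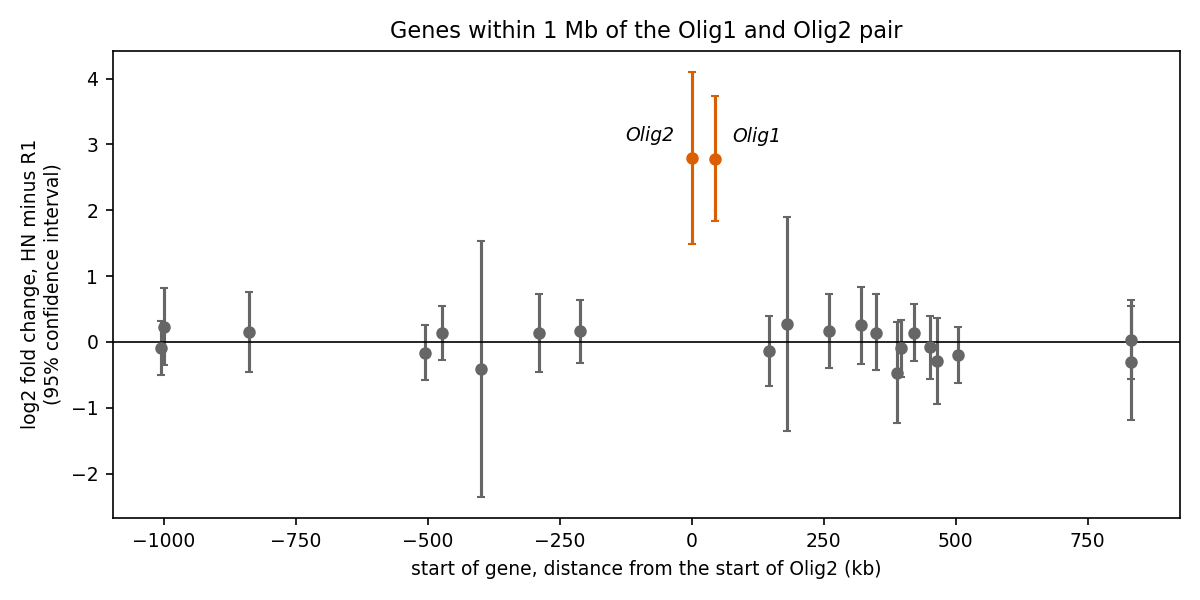
Log2 fold change of HN against R1 mESCs (y axis, points with 95% confidence intervals by limma without a block) for the tested genes within 1 Mb of the Olig pair, by the distance of the gene's lower coordinate, on either strand, from the start of Olig2 in kb (x axis). Olig1 and Olig2 (orange) stand at 2.78 and 2.80, and the 21 other genes between -0.47 and 0.27.

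The wider neural programme was read from 6 lists with 121 genes, none of them among the 9, of which 96 were tested. Without a block, limma called 0 of these genes higher and 0 lower (3 and 4 at an unadjusted p under 0.05, with the same fold threshold). edgeR and DESeq2 without the block also called 0 in either direction. The median log2 difference of the 96 genes was -0.10, beside -0.01 for all tested genes. With the replicate block, 3 were called higher and 4 lower, and both percentages of called genes over the whole table for that fit are given above. In that fit limma leans on the spread over all genes, so its p-values do not measure the spread of a gene's own 3 pairs alone.

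Of the 23 tested factors of the neural plate and neural stem cells, Zic2 and Zic5 were called higher and Otx2 lower with the block. Zic2, a zinc finger factor of the neural plate, had normalized counts of 11.7, 13.3 and 41.8 in R1 and 65.7, 38.3 and 85.6 in HN mESCs, with overlapping lines and a log2 difference of 1.62 (adjusted p = 0.415 by limma, and 2.36e-05 with the block). Its pair values of 2.39, 1.46 and 1.02 spread wider than its block interval of 1.11 to 2.14. Zic5, its relative, differed by 1.24 (adjusted p = 0.511 by limma, and 3.78e-04 with the block). Otx2, a homeodomain factor of the forebrain and of primed pluripotent cells, had normalized counts of 27.7, 15.5 and 37.7 in R1 and 12.2, 3.54 and 11.9 in HN, without overlap. Its log2 difference was -1.52 (adjusted p = 0.620 by limma, and 0.00308 with the block). Sox2, the most abundant gene of the list, was level between the lines, at 1082 ± 274.9 for R1 and 1066 ± 148.1 for HN mESCs (SD over 3 libraries).

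The 17 tested bHLH factors and partners and the 22 tested genes of neural tube patterning had 0 calls by limma with or without the block (0 and 1 at an unadjusted p under 0.05 with the block and the fold threshold) and 0 by edgeR and DESeq2. Their median log2 differences were -0.07 and 0.01. Tcf3 and Tcf12, bHLH partners of the Olig and Neurod proteins and the most abundant of their list, differed by 0.15 and 0.61 on the log2 scale, and Smo and Gli2 of the Hedgehog pathway by -0.71 and 0.13. The lines did not overlap for Tcf12 and Smo, whose adjusted p with the block was 0.00585 and 0.00147 by limma at fold changes under the threshold of 1. Olig3, the third Olig gene, named outside the naming rule, had normalized counts of 1.06, 2.22 and 17.5 in R1 and 4.87, 2.84 and 7.58 in HN mESCs, a log2 difference of 0.22 (95% interval -2 to 2.43, adjusted p = 1 by limma).

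Of the 9 tested genes of the oligodendrocyte lineage, Myrf, a transcription factor of myelin genes, was called lower with the block, and 0 were called higher. Its normalized counts were 25.6, 48.1 and 40.4 in R1 and 12.2, 12.8 and 21.7 in HN mESCs, without overlap, and the log2 difference was -1.24 (adjusted p = 0.486 by limma, and 0.00322 with the block). Cnp, the most abundant gene of the list and a gene of myelinating cells, had 121.6 ± 9.25 for R1 and 88.5 ± 11.01 for HN mESCs (SD over 3 libraries), a log2 difference of -0.46 without overlap (adjusted p = 0.857 by limma, and 0.0486 with the block). Sox10 and Pdgfra, which mark oligodendrocyte progenitors and were named after their values were seen, differed by -0.62 (95% interval -2.46 to 1.21) and 0.01 (95% interval -1.32 to 1.35). The median of the list was -0.20, against -0.01 for all tested genes.

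Of the 17 tested genes of neurons and glia, Nefl, a neurofilament subunit, was called higher with the block, while Stmn3, a regulator of microtubules, and Slc1a3, the glutamate transporter of astrocytes and radial glia, were called lower. Nefl had normalized counts of 35.1, 42.9 and 29.7 in R1 and 77.9, 124.8 and 57.4 in HN mESCs, a log2 difference of 1.19 (adjusted p = 0.311 by limma, and 4.36e-05 with the block). The log2 differences of Stmn3 and Slc1a3 were -1.37 (adjusted p = 0.354 by limma, and 4.07e-05 with the block) and -1.17 (adjusted p = 0.256, and 1.23e-04 with the block). For all 3 genes the lines did not overlap. The most abundant genes of the list, Vim and Stmn2, differed by -0.47 and -0.77, with an adjusted p of 0.00515 and 1.17e-05 by limma with the block at fold changes under the threshold of 1, and the lines did not overlap for Stmn2. The median of the list was -0.43. The 8 tested genes of the endocrine pancreas had 0 calls by limma, edgeR and DESeq2 (0 at an unadjusted p under 0.05 with the fold threshold) and a median of -0.08, with Chga and Mafa, the most abundant, at 0.11 and -0.21.

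**Figure D5:**
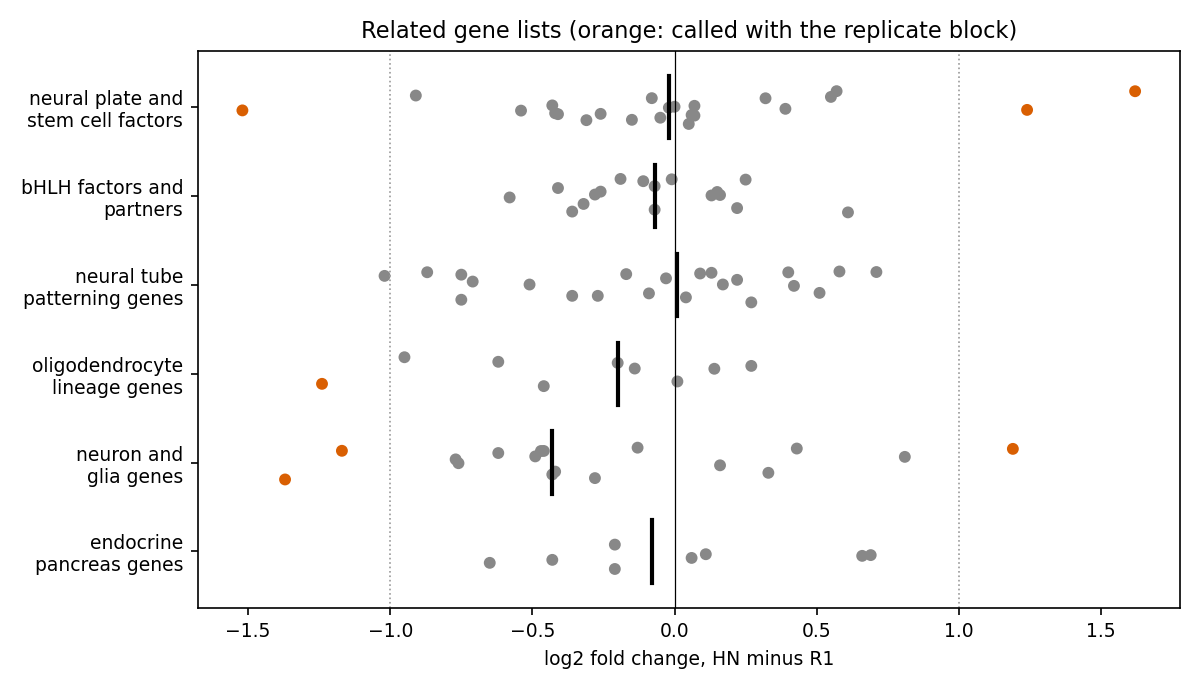
Log2 fold change of HN against R1 mESCs (x axis) for each tested gene of the 6 related lists (rows), with a black bar at the median of each list. Orange points are the 3 genes called higher and 4 called lower by limma with the replicate block, dotted lines mark a log2 fold change of 1 in either direction, and the vertical spread within a row has no meaning.

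On the third date 38 of the 96 genes were called higher and 1 lower, against 8.52% and 1.23% of all genes, and the median difference was 1.25. At means of 5 to 10 and 10 to 20, 20.2% and 28.3% of all tested genes were called higher, with median differences of 1.30 and 0.83. The sums of lists for other cell types also differed by date. Whether any list differed beyond genes of its level was not tested. The summed normalized counts of 8 markers of primitive endoderm were 139 and 156 on the third date and 35.4 to 58.4 on the others, and those of 6 markers of trophectoderm were 125 and 183 against 54.7 to 63.9. The summed counts of the 10 mESC markers were lower on the third date, 12180 and 13290 against 16270 to 18000. Their median difference was -0.32, beside -0.26 for all tested genes with means of 500 and more. Between the lines, the sum of 7 markers of mesoderm and primitive streak was 183 to 268 in HN and 87.3 to 176 in R1 mESCs, and with the block T was called higher, 1 of 5 tested. Eomes, with means of 65.8 in R1 and 125.4 in HN mESCs, and T made up most of the sum. On the log2 scale Eomes, Kdr and Mixl1 differed by 0.96, 1.11 and 0.28, and Gsc by -0.37. These 4 were named after their values were seen. The sum of 8 fibroblast markers was 31.2 to 87.7 in HN and 74.0 to 173 in R1 mESCs, with Thy1 and Pdgfrb called lower with the block, 2 of 5 tested. These 2 genes made up much of the sum. The other tested markers, Col1a1, Col1a2 and Col3a1, named after their values were seen, differed by -0.13, -0.45 and 0.11 on the log2 scale. In each of these lists, 0 markers were at 0 in all 6 libraries. Some were near 0, such as Ttr with 0 to 1 reads per library and Dcn with 0 to 2, both named after their values were seen. Their part in the values of the 9 genes was not tested.

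The genes most like Olig1 over the 6 libraries, by Pearson's r of log2(normalized count + 1), were B3galtl, Rpe and Nod1 (r = 0.994), Naaladl1 (0.992) and Gm8909 (0.989). Those most like Olig2 were Tmprss11f (0.994), Uggt2 (0.991), Gc (0.990) and Wiz (0.983). The correlation between Olig1 and Olig2 was 0.948, which put Olig2 at rank 39 among 14275 genes for Olig1, and Olig1 at rank 30 for Olig2. All 9 of these genes had HN libraries above the R1 libraries without overlap, so the points share the difference between the lines. Nod1, an innate immune sensor, had normalized counts of 7.45, 5.92 and 25.6 in R1 and 101, 146.7 and 104 in HN, and Uggt2, which acts in the folding of glycoproteins, 8.52, 14.8 and 36.4 in R1 and 99.8, 94.3 and 69.3 in HN. For both, as for Olig1 and Olig2, R1 replicate 3 was the highest of the R1 libraries. The difference between the lines in the change on the third date (HN minus R1) was -2.02 for Nod1 and -2.09 for Uggt2. All 9 genes had a negative value, from -2.73 for Gc to -0.53 for Naaladl1, and none was called. They were chosen for their likeness to the Olig pair.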

How the data were processed

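The 6 libraries were made with the TruSeq RNA v2 kit, which does not mark the strand, and sequenced as paired-end reads of 50 bases. Per the study's methods, the authors aligned reads to mm10/GRCm38 with STAR, removed duplicates with Picard, counted reads on exons with HTSeq and normalized with DESeq2. Versions and the annotation are not given in the sources used here. The deposited values are a signal, the normalized counts. Divided by the step that 1 read gives, 100% came out whole within 0.01 reads, so the read counts were recovered. Limma 3.58.1 in R 4.3.3, with a variance trend, was run on log2(normalized count + 1) for genes with a mean of at least 5 and adjusted by Benjamini-Hochberg over 14276 genes. Called genes had an adjusted p under 0.05 and a log2 fold change beyond 1. The main test was chosen to suit the deposited normalized values, and DESeq2, the tool of the study, served as an alternative. edgeR 4.0.16 (quasi-likelihood) and DESeq2 1.42.0 on the recovered reads, other pseudocounts, filters and scalings, and fits without single libraries were alternatives. Limma, edgeR and DESeq2 without the block were tried on simulated counts that held no date effect. The fits with the block, by date, and by line and date were not tried on them.

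Replicates of the same number pair the lines because the labels give them 1 collection date. Across genes, the correlations between same-number libraries, each taken relative to its line's mean, were 0.25, 0.69 and 0.77. Those between libraries of different numbers ran from -0.71 to 0.34. The highest of these, between R1 replicate 1 and HN replicate 2, exceeded that of the first pair, so the values did not single out that pair. Relative to its mean, the libraries of a line cancel out, so positive correlations within numbers make some of those between numbers negative. Replicates of a line differed beyond sampling noise (chi-square per degree of freedom of 5.11 to 10.1). The 9 genes and the related lists were chosen with earlier results of these data known. The genes named are the 9, Htt, list genes called with or without the block, the 2 most abundant tested genes of each related list, the 5 genes most correlated with Olig1 and with Olig2, and the nearest tested genes beside that pair. Of these, 2 are not reported here. Others are said to be named after their values were seen. Gene positions, exon lengths and transcript stretches come from GENCODE M21 (GRCm38).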

Additional observations from a re-analysis of the deposited data

Results flagged for a closer look

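The change on the third collection date differed between the lines for Olig1 and Olig2. Against the first and second dates, the third was higher in R1 and lower in HN mESCs, and the difference of these changes (HN minus R1) was -1.75 for Olig1 and -3.15 for Olig2 on the log2 scale. The test took the first and second dates of a line as replicates and was chosen after seeing the data. Unadjusted p-values were 0.0203 and 0.00172 by limma, and adjusted over 14276 genes both were 1. edgeR gave -1.89 and -3.24, also with an adjusted p = 1. The third date of each line is 1 library, so that library and the date cannot be told apart. Date differences also changed with expression level over all tested genes, and whether the Olig pair differed beyond its level was not tested.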

How the results depend on the processing

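The log2 fold change of Olig1 stayed positive in the 20 alternatives, between 2.00 (pseudocount 10) and 3.37 (without the third date), and that of Olig2 between 1.93 and 3.85 in the same 2 settings. The number of the 9 genes called higher was 1 in the test without a block and 2 with limma and the replicate block, edgeR and the replicate block, DESeq2, and without the third date with and without the block (both chosen after seeing the data). It was 0 with a mean of at least 50, which left none of the 9 genes to test, and 0 without a variance trend (adjusted p = 0.283 for Olig1 by limma, 2 at an unadjusted p under 0.05). With single libraries left out it ranged from 0 to 2. DESeq2 with the replicate block did not call Olig2 (adjusted p = 0.0506). Pax6 ranged from -1.10 to 0.24 with single libraries left out, turning positive without R1 replicate 3 (0.24) and HN replicate 2 (0.02), and the fold changes of the other tested genes kept their sign in all alternatives. The block changed no other call among the 9 genes.

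Over all genes, 17 higher and 18 lower became 130 and 148 with the replicate block, 132 and 152 with edgeR and the block, 47 and 33 with DESeq2, 72 and 55 with DESeq2 and the block, 189 and 197 without the third date with the block, and 0 and 0 without a variance trend (128 and 157 at an unadjusted p under 0.05). Median centring called 27 higher. Single libraries left out gave 3 to 30 higher and 4 to 26 lower. Of the list genes, 0 higher and 0 lower became 3 and 4 with the block by limma and by edgeR, 3 and 2 by DESeq2 with the block, 3 and 6 without the third date with the block, and 0 to 1 in each direction with single libraries left out (1 without R1 replicate 3). By date, 2 of the 9 genes were called in the main test, 1 with pseudocounts of 0.1 and 10, no filter or no variance trend, 4 with median centring, and 0 with quantile normalization (1 at an unadjusted p under 0.05) or a mean of at least 50. All genes called by date numbered 1392, and 923, 857, 122 and 814 with pseudocounts of 0.1 and 10, a mean of at least 50 and quantile normalization. Except where stated, the cause of these changes was not tested. The 7 genes besides Olig1 and Olig2 had 0 to 57 reads per library, and the intervals of the 6 tested among them narrowed with the replicate block at the same depth. The parts of depth and of the spread between dates were not tested. Counts at an unadjusted p include the fold threshold.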
